A study of Mus musculus with 12 samples.

Results

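PD-1 and the other inhibitory receptors of T cells were followed here as 7 genes: Pdcd1, Cd274, Pdcd1lg2, Lag3, Havcr2, Tigit and Btla. They were taken by symbol from a NanoString panel of 770 mouse genes, and all 7 were measured. Messenger RNA was counted in macrophages and in T cells that had been purified from the lung tumours of mice. The mice are labelled KrasTrp53, a genetically engineered model, on a mixed background strain, and were given ricolinostat, which inhibits the deacetylase HDAC6, JQ1, which inhibits BET bromodomain proteins, or vehicle. Each of the 6 groups holds 2 libraries, 12 in all: macrophages under ricolinostat, JQ1 and vehicle, and T cells under ricolinostat, JQ1 and vehicle. Every group carries the tumour model, and no tumour-free animal is among the groups. The labels do not state the alleles, the driver of recombination, the age, the dose, the duration or the sorting markers. Nor do they state that both libraries of one group are from different mice, and the p-values therefore reflect library-to-library spread that could be technical.

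PD-1 is a receptor on activated T cells that recruits phosphatases to the antigen receptor and the co-receptor CD28 and so dampens signalling by kinases such as Lck. Its ligands PD-L1 and PD-L2 are made by macrophages, dendritic cells and many tumour cells, and PD-L1 is induced by interferon gamma through JAK and STAT proteins and IRF1. LAG-3, TIM-3, TIGIT and BTLA are further inhibitory receptors, and several of them are often found together with PD-1 on T cells in tumours.

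The start regions of 3 of the genes are shown because Pdcd1 was the member that passed the tests between treatments, and because Cd274 and Pdcd1lg2, the 2 ligand genes, lie side by side. A single annotated gene, the long non-coding RNA Gm36043, separates the ligand genes on chromosome 19. Each line gives the 250 bases before the annotated start, 5′ to 3′ on the gene's own strand, from RefSeq on build GRCm38.p6. The regions are chr1:94052554-94052803 on the minus strand for Pdcd1, chr19:29367188-29367437 on the plus strand for Cd274, and chr19:29410669-29410918 on the plus strand for Pdcd1lg2. Capitals mark matches to the motifs searched.
Pdcd1: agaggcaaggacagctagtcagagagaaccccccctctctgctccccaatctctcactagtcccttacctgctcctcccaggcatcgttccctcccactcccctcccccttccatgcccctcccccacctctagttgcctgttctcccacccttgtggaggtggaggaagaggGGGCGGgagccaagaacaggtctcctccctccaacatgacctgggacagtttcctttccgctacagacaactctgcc
Cd274: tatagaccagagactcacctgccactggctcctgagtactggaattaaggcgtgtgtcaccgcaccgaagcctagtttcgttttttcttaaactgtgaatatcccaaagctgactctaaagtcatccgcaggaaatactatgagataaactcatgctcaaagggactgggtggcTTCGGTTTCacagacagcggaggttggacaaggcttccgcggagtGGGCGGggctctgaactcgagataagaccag
Pdcd1lg2: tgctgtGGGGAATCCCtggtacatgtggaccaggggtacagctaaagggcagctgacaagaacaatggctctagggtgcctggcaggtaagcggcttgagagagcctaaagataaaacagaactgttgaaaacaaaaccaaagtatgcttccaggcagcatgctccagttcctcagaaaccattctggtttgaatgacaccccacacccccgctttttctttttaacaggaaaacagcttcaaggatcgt
Both strands were searched for 6 motifs, and hits could overlap one another. Cd274 held 1 IRF motif (GAAANNGAA), read here on the opposite strand as TTCGGTTTC, 76 to 68 bases before the start, and a GC box (GGGCGG) 31 to 26 bases before it. Pdcd1 held a GC box 77 to 72 bases before its start, and Pdcd1lg2 held the NF-kappa B consensus as GGGGAATCCC, 244 to 235 bases before its start. Of 32851 promoter windows of this length in the same table, 7.13% held the IRF motif, 32.7% the GC box and 3.90% the NF-kappa B consensus. The STAT motif (TTCNNNGAA), the E-box (CACGTG) and the AP-1 motif (TGANTCA), held by 7.02%, 6.02% and 6.75% of the windows, were not among the letters of these 3 regions. Of the other members, Havcr2 on chromosome 11 held an AP-1 motif and Btla on chromosome 16 an IRF motif, while the window of Tigit, also on chromosome 16, held none of the 6. Lag3 has no entry in the table. A match describes letters and is not evidence of binding.

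Before the results, 2 features of the libraries need to be given. In either cell type, replicate 2 under ricolinostat differed from its partner far more than replicates did elsewhere. Over the 18 housekeeping genes measured, the log2 difference between replicates had an SD of 2.72 in macrophages and 2.18 in T cells under ricolinostat, against 0.116 to 0.183 in the other 4 groups. The T cell libraries under JQ1 had few T cell transcripts. The summed signal of 13 T cell markers in the T cell libraries was 2855.79 and 3458.79 under ricolinostat, 194.19 and 202.34 under JQ1, and 4536.49 and 4533.57 under vehicle. Across the macrophage libraries the same sum ran from 125.3 to 599.24, so the JQ1 T cell libraries lay within the macrophage range. Macrophage markers were abundant in every library, the sum of 11 of them being 571671 to 746418 in macrophage and 377687 to 874245 in T cell libraries. Epithelial markers, summed over 3 genes, stood at 2625.91 to 4316.27 in macrophage libraries and were higher in T cell libraries, at 13826.5 and 8449.31 under ricolinostat, 16245.5 and 16096 under JQ1, and 6441.75 and 7365.16 under vehicle. In the T cell libraries, 1456700 to 2076300 counts above background were estimated per library, and 773900 to 1539200 in the macrophage libraries. A signal of 20, used below as the lower limit of measurement, corresponded to between 2.70 and 14.0 counts.

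**Figure D1:**
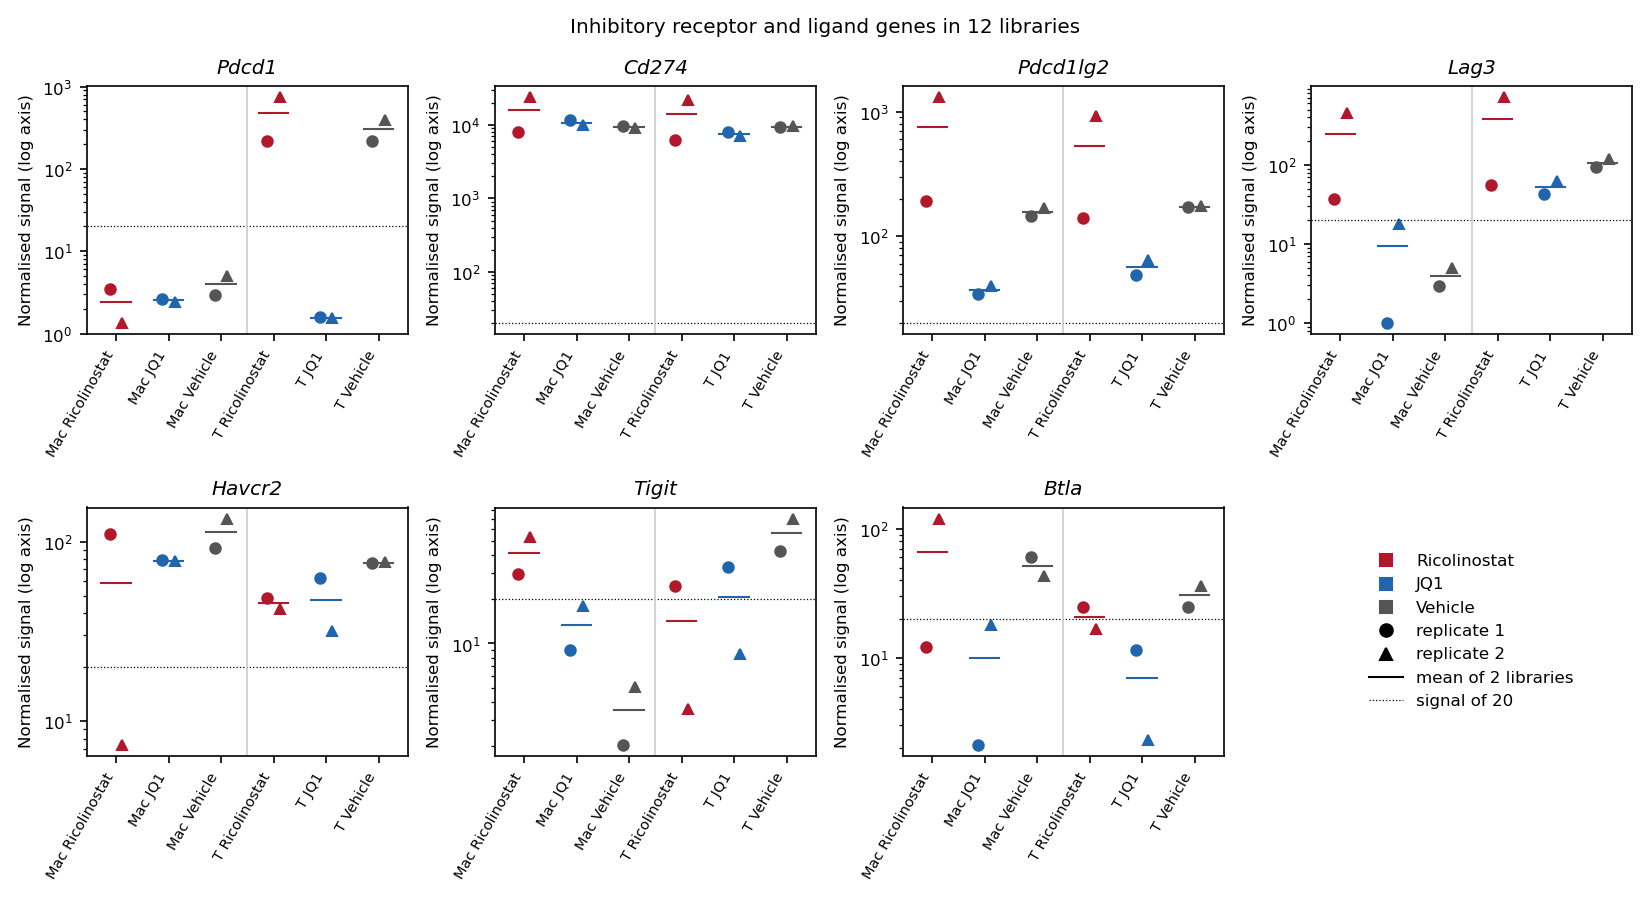
Normalised signal (log axis) of the 7 genes in each of the 12 libraries, with macrophage groups left of T cell groups. Circles are replicate 1, triangles replicate 2, short lines the mean of the 2 libraries and the dotted line a signal of 20; Pdcd1 exceeds that line in 4 libraries, all of them T cell libraries under ricolinostat or vehicle.

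Pdcd1, the gene of the receptor PD-1, exceeded a signal of 20 only in T cell libraries, and there only under ricolinostat and vehicle. In macrophages its signal was 3.51 and 1.34 under ricolinostat, 2.65 and 2.41 under JQ1, and 2.9 and 5.03 under vehicle. In T cells it was 221.27 and 741.33 under ricolinostat, 1.57 and 1.55 under JQ1, and 220.41 and 387.64 under vehicle. All 6 macrophage libraries and both JQ1 T cell libraries lay under 1.5 times the spacing of the library's low values, which was taken as the signal of 1 count, and no value of these 8 libraries came near the lowest of the other 4. By group mean, T cells under ricolinostat (481 ± 368, SD, n = 2) stood above T cells under vehicle (304 ± 118, SD, n = 2), but the libraries of these groups overlapped.

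Under JQ1, Pdcd1 fell in T cells relative to vehicle. Both JQ1 libraries were at background, so the fall was at least 14.0-fold, taken as the vehicle mean over a signal of 20, both on the log2(signal + 1) scale. The fitted difference was -6.84 ± 0.73 (SE) with a limma adjusted p of 0.0123, lower in 2 of 2 libraries. Pdcd1 was the 1 member of 7 called, and 5.54% of the 632 genes tested fell in this comparison. The call rested on all 4 libraries: without vehicle replicate 1 the adjusted p was 0.132, without vehicle replicate 2 it was 0.128, without JQ1 replicate 1 it was 0.0720 and without JQ1 replicate 2 it was 0.122. Over the 13 alternatives it ran from 9.13e-04 to 0.132, with differences of -7.25 to -4.71.

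T cell markers moved together with Pdcd1. Of 13 T cell markers, 9 fell under JQ1, against 5.54% of the 632 genes tested. Their median log2 difference was -5.46 against -0.37 over all genes tested. Cd3e, which encodes CD3 epsilon, had 4.42 and 1.55 under JQ1 and 431.75 and 563.27 under vehicle, and Cd8a, a CD8 chain, had 1 and 2.29 under JQ1 and 116.7 and 188.73 under vehicle. Both genes, like Pdcd1, were far below 20 in both JQ1 libraries. The part of this marker loss in the fall of Pdcd1 was not tested, and in bulk RNA fewer T cells and less Pdcd1 RNA per T cell cannot be told apart.

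**Figure D2:**
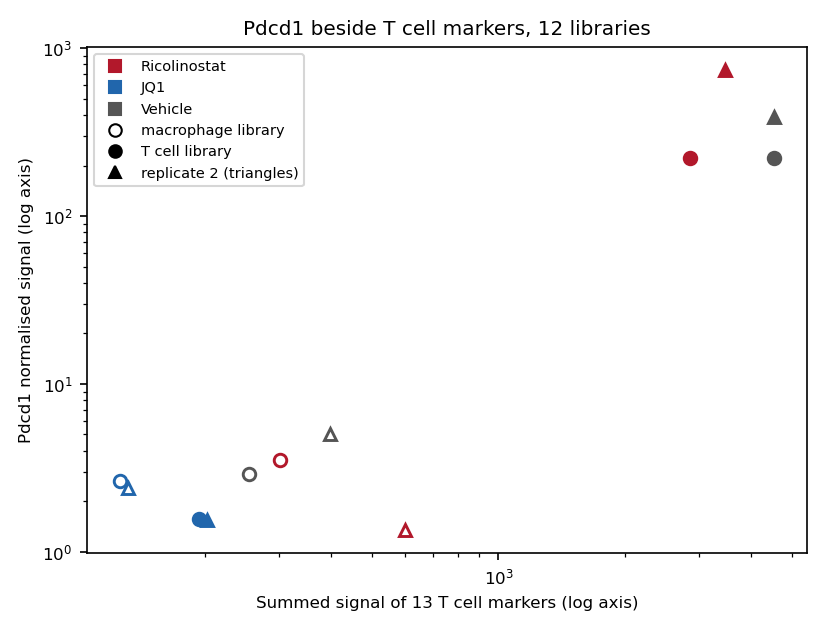
Pdcd1 signal (log axis) against the summed signal of 13 T cell markers (log axis) in the 12 libraries; open symbols are macrophage and filled symbols T cell libraries. The 2 JQ1 T cell libraries, at marker sums of 194.19 and 202.34, lie among the macrophage libraries on both axes, and the other 4 T cell libraries lie at 2855.79 or above on the marker axis.

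Ricolinostat was not followed by a called change of any of the 7 genes in T cells relative to vehicle. With limma, 0 of 7 members passed, 0 at an unadjusted p under 0.05, and 0% of the 632 genes tested were called. Of those 632, 18 had an unadjusted p under 0.05. The log2 difference of Pdcd1 was 0.47 (95% interval -1.35 to 2.28), and it was -0.40 without replicate 2. Between the 2 drugs, Pdcd1 was higher under ricolinostat than under JQ1 in T cells, at least 19.3-fold, with a limma adjusted p of 0.0224. Of the 7 members 1 was called higher, against 2.85% of the genes tested. Without replicate 2 of ricolinostat, which left 1 library in that group, the bound was 10.6-fold. The call was lost without either vehicle library (adjusted p of 0.0830 without replicate 1 and 0.0838 without replicate 2) and without either JQ1 library (0.0859 and 0.209), and over the 13 alternatives the adjusted p ran from 7.99e-04 to 0.209.

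Pdcd1 also set the cell types apart. Macrophages were lower than T cells under vehicle, at least 14.0-fold (difference -5.92 ± 0.67 SE, limma adjusted p of 0.00153), and under ricolinostat, at least 19.3-fold (difference -6.97 ± 0.67 SE, limma adjusted p of 0.00118). Both calls held over their 18 alternatives. Under JQ1 both cell types were at background and no fold is given. The effect of JQ1 in macrophages minus that in T cells was 6.38 ± 0.95 (SE) for Pdcd1, with a limma adjusted p of 0.0255. That value depends on the macrophage libraries being at background under each treatment, where no fall could have been measured. Pdcd1 was the 1 member called there, and 0.908% of the 661 genes tested were higher. The call was lost without any 1 of the 8 vehicle and JQ1 libraries, with adjusted p-values of 0.0921 to 0.171, and over all 18 alternatives the adjusted p ran from 0.00447 to 0.171.

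Cd274 encodes PD-L1, the more widely made of the PD-1 ligands, and was far above background in every library. Its signal in macrophages was 7986.65 and 23954 under ricolinostat, 11561.6 and 10087.9 under JQ1, and 9856.21 and 9276.39 under vehicle. In T cell libraries it was 6219.7 and 22333.5 under ricolinostat, 8154.04 and 7097.85 under JQ1, and 9286.47 and 9622.22 under vehicle. The 2 ricolinostat replicate 2 libraries were the highest of the 12, and the 2 ricolinostat replicate 1 libraries were below their vehicle libraries. JQ1 T cell libraries lay below both vehicle libraries, and JQ1 macrophage libraries lay above theirs. Neither difference passed: JQ1 minus vehicle was -0.31 in T cells (95% interval -2.09 to 1.47, limma adjusted p of 0.989) and 0.18 in macrophages (-1.66 to 2.01, 0.999). Without replicate 2 of ricolinostat these intervals narrowed to -0.79 to 0.16 and -0.34 to 0.69. Under vehicle, macrophage and T cell libraries overlapped in Cd274, with a difference of 0.02 (-1.61 to 1.65). Macrophage markers were as abundant in the T cell libraries as stated above. The macrophage gene Cd68 had 47588.4 and 41856.3 in vehicle macrophages and 38097.1 and 38680.3 in vehicle T cells, and the part of such transcripts in the Cd274 signal of T cell libraries was not tested.

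Pdcd1lg2 encodes PD-L2, the ligand made mainly by macrophages and dendritic cells, and had its lowest values under JQ1 in both cell types. Its signal in macrophages was 191.36 and 1304.88 under ricolinostat, 34.39 and 39.49 under JQ1, and 144.12 and 169.11 under vehicle. In T cell libraries it was 138.48 and 928.77 under ricolinostat, 48.62 and 64.16 under JQ1, and 171.49 and 173.91 under vehicle. The 4 JQ1 libraries were the lowest of the 12 and did not overlap any other library.

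JQ1 minus vehicle for Pdcd1lg2 was -1.61 in T cells (95% interval -3.93 to 0.71) and -2.05 in macrophages (-4.54 to 0.43), or 0.327 and 0.241 of the vehicle level. With all libraries neither passed (limma adjusted p of 0.633 and 0.999). In T cells the difference passed once either ricolinostat library was left out, with an adjusted p of 0.0245 without replicate 2 and 0.0246 without replicate 1, and the SE fell to 0.207 without replicate 2. In that fit 2 of 7 members fell, Pdcd1 and Pdcd1lg2, against 12.3% of the 626 genes tested. Over the 13 alternatives the adjusted p in T cells ran from 0.0245 to 0.9997. In macrophages the unadjusted p without replicate 2 was 8.24e-04, and the adjusted p of 0.232 stayed above the threshold. The difference between the 2 JQ1 effects was -0.44 (-3.74 to 2.86, adjusted p of 0.9999), an interval too wide to show whether the cell types responded alike.

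JQ1 left 0 of 6 tested members called in macrophages with limma, 0 at an unadjusted p under 0.05, and 0% of the 566 genes tested were called. Of those 566, 7 had an unadjusted p under 0.05. Pdcd1 was not tested in the macrophage comparisons, since no library exceeded 20. The log2 differences of the 6 ran from -2.76 for Btla to 1.68 for Tigit, and the median over all genes tested was -0.20.

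**Figure D3:**
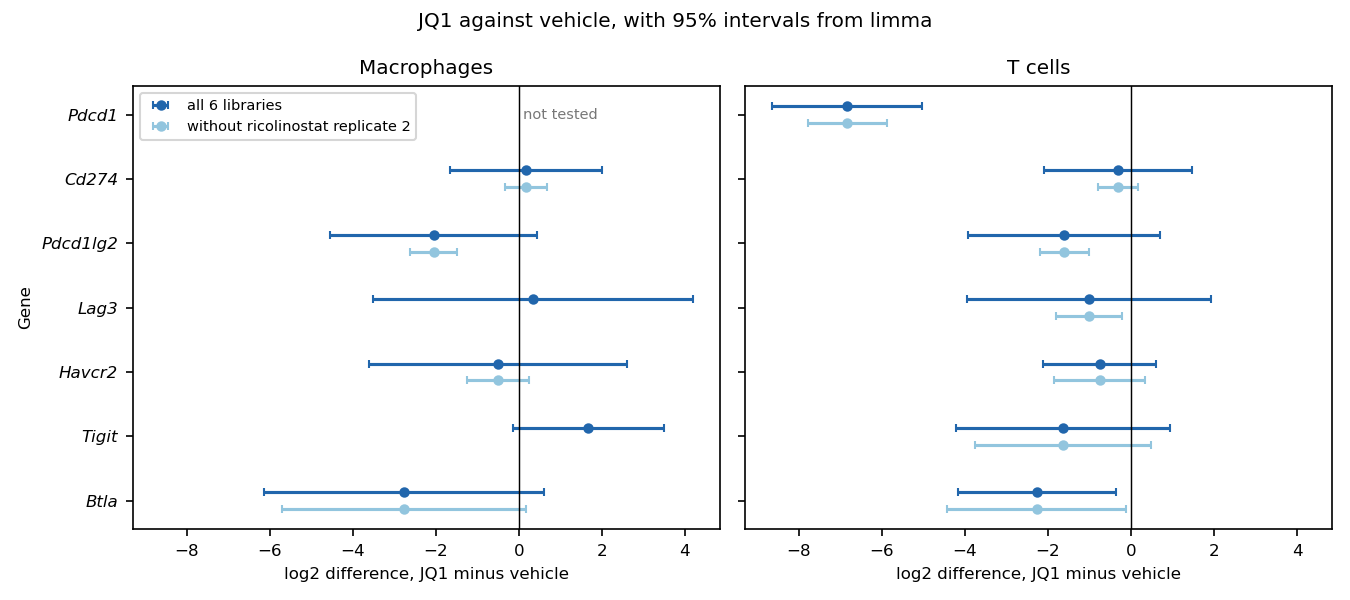
Log2 difference of JQ1 minus vehicle (horizontal axis) for the 7 genes in macrophages and in T cells, with 95% limma intervals, from all 6 libraries of a cell type (dark) and without ricolinostat replicate 2 (light). The Pdcd1 interval in T cells, -8.66 to -5.03, lies far from 0 and the Pdcd1lg2 intervals lie below 0 only in the lighter fits; a member with no lighter bar was not tested in that fit.

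Under ricolinostat the values of Pdcd1lg2 and Cd274 turned on 1 library per cell type. Pdcd1lg2 was 1.67 above vehicle in macrophages (limma adjusted p of 0.570) and 1.05 in T cells (0.665). Without replicate 2 these log2 differences were 0.29 and -0.32. With replicate 2 as the lone ricolinostat library they were 3.06 and 2.42. For Cd274 the differences were 0.53 in macrophages and 0.32 in T cells. They were -0.26 and -0.60 without replicate 2, and 1.32 and 1.24 with it alone. No p-value is given for replicate 2 alone. The summed signal of 5 dendritic cell markers was 44385.1 in macrophages and 30957.1 in T cells of ricolinostat replicate 2, against 5356.77 to 10493.5 in the other 10 libraries. The markers did not move as a group: 3 of the 4 tested had negative differences under ricolinostat in both cell types (medians of -0.56 in macrophages and -0.69 in T cells), and 3 of the 5 exceeded 20 in each replicate 2 library, against 4 in each replicate 1 library. Their part in the ligand values was not tested. Between the drugs, Pdcd1lg2 was 3.73 higher under ricolinostat than under JQ1 in macrophages (unadjusted p of 0.0109, adjusted 0.585) and 2.66 higher in T cells (0.0311, adjusted 0.317), and neither passed.

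Lag3, whose product LAG-3 binds MHC class II, was measured in all T cell libraries and in 2 macrophage libraries. In macrophages the signal was 36.72 and 453.13 under ricolinostat, 1 and 17.84 under JQ1, and 2.9 and 5.03 under vehicle. In T cells it was 55.7 and 716.09 under ricolinostat, 42.92 and 62.62 under JQ1, and 93.22 and 118.9 under vehicle. Lag3 remained above 20 in the JQ1 T cell libraries, where Cd3e and Pdcd1 were not. JQ1 libraries of T cells lay below the vehicle libraries, with a difference of -1.01 (95% interval -3.95 to 1.93, limma adjusted p of 0.978). In ricolinostat T cells, replicate 1 was below and replicate 2 above both vehicle libraries, and the difference of 0.92 became -0.91 without replicate 2. In macrophages both ricolinostat libraries exceeded every JQ1 and vehicle library. Against vehicle this was at least 6.23-fold (unadjusted p of 0.0240, limma adjusted 0.570). Only these 2 macrophage libraries exceeded 20, so Lag3 was tested in macrophages through the ricolinostat group alone. A higher value in that group was thus built into the selection, and no support is drawn from the p-value. Without replicate 2 the bound was 1.80-fold, from 1 library that could not be tested.

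Lag3 in macrophages minus T cells under vehicle was -4.45, at least 5.06-fold lower, and did not pass in all 12 libraries (limma adjusted p of 0.127). It passed without both ricolinostat replicate 2 libraries (0.0309), and over the 18 alternatives the adjusted p ran from 0.0309 to 0.459.

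Havcr2 encodes TIM-3, a receptor of exhausted T cells that myeloid cells also carry, and Havcr2 exceeded 20 in 11 of 12 libraries. In macrophages its signal was 110.52 and 7.41 under ricolinostat, 78.82 and 77.97 under JQ1, and 91.94 and 133.88 under vehicle. In T cells it was 48.8 and 42.01 under ricolinostat, 62.88 and 31.68 under JQ1, and 75.6 and 76.57 under vehicle. The vehicle libraries were the highest of the T cell libraries, and the single library at background was ricolinostat replicate 2 of macrophages. Havcr2 passed in no comparison with all libraries. JQ1 minus vehicle was -0.75 in T cells (limma adjusted p of 0.798) and -0.50 in macrophages (0.999), and macrophages minus T cells under vehicle was 0.54 (0.998). Ricolinostat minus vehicle was -0.74 in T cells and -1.87 in macrophages. The macrophage value was -0.01 without replicate 2 and -3.73 with it as the lone ricolinostat library.

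Tigit encodes TIGIT, a receptor for the poliovirus receptor family, and had low values throughout. In macrophages its signal was 29.69 and 53.18 under ricolinostat, 9 and 17.84 under JQ1, and 2.06 and 5.03 under vehicle. In T cells it was 24.66 and 3.6 under ricolinostat, 32.94 and 8.48 under JQ1, and 42.34 and 70.23 under vehicle. Vehicle libraries were the lowest in macrophages and the highest in T cells, in both cases without overlap with the treated libraries.

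Macrophages under vehicle had less Tigit than T cells under vehicle, at least 2.65-fold, with a difference of -3.69 ± 0.94 (SE) and a limma adjusted p of 0.0395. Under vehicle 2 of 7 members were called lower in macrophages, Pdcd1 and Tigit, against 10.1% of the 661 genes tested, and without both ricolinostat replicate 2 libraries 3 were, with Lag3 added, against 17.8%. The Tigit call was lost without any 1 of the 4 vehicle libraries or of the 2 JQ1 macrophage libraries (adjusted p of 0.0630 to 0.266) and with a pseudocount of 10, median centring or quantile normalisation (0.0512, 0.0829 and 0.134). Over the 18 alternatives the adjusted p ran from 0.0178 to 0.266. Under JQ1, 0 of 7 members were called between cell types with limma, 0 at an unadjusted p under 0.05, although 5.30% of genes were called. Of the 661 genes tested there, 98 had an unadjusted p under 0.05. Under ricolinostat 1 of 7, Pdcd1, was lower in macrophages, against 5.60%. Havcr2 was at background in ricolinostat replicate 2 of macrophages (7.41), so no call is taken from that library alone.

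Neither drug's effect on Tigit passed. Ricolinostat minus vehicle was 3.25 in macrophages, at least 1.94-fold (unadjusted p of 0.00512, limma adjusted 0.570), and -2.35 in T cells (95% interval -4.93 to 0.23). Like Lag3, Tigit exceeded 20 in macrophages only in the 2 ricolinostat libraries and was tested there through that group alone. The direction was thus built into the selection, and no support is drawn from the macrophage p-value. Relative to vehicle under ricolinostat, 0 of 6 tested members were called in macrophages with limma, and 0% of genes were called. At an unadjusted p under 0.05 were 2 members, Lag3 and Tigit, against 16 of the 566 genes tested. For ricolinostat relative to JQ1 in macrophages, 0 of 6 tested members and 0% of genes were called. There Pdcd1lg2 and Lag3 were the 2 members at an unadjusted p under 0.05, against 35 of the 566 genes tested. The difference between the ricolinostat effects in macrophages and T cells was 5.60 for Tigit (unadjusted p of 0.00248, adjusted 0.820), and 0 of 7 members and 0% of genes were called. The difference between the JQ1 effects was 3.31 for Tigit (unadjusted p of 0.0358, adjusted 0.464). The 2 ricolinostat T cell libraries of Tigit lie on either side of 20. The T cell difference was -1.11 without replicate 2 and -3.59 with it alone.

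Btla encodes BTLA, a receptor of B and T cells that binds HVEM, and exceeded 20 in 6 of 12 libraries. In macrophages its signal was 12.12 and 119.84 under ricolinostat, 2.12 and 17.84 under JQ1, and 60.04 and 43.31 under vehicle. In T cells it was 24.66 and 16.78 under ricolinostat, 11.55 and 2.29 under JQ1, and 24.73 and 36.37 under vehicle. All 4 JQ1 libraries were below 20 and lay below every vehicle library of their cell type. Against vehicle this was at least 1.48-fold lower in T cells (unadjusted p of 0.0269, limma adjusted 0.256) and at least 2.48-fold lower in macrophages (unadjusted p of 0.0907, adjusted 0.999), and neither passed. Under ricolinostat the macrophage libraries fell on either side of vehicle, and the difference of -0.39 was -1.99 without replicate 2 and 1.22 with it alone. B cell markers, summed over 7 genes, were at 25.9 to 220.5 in macrophage and 148.38 to 297.98 in T cell libraries. Of the 7, at most 1 exceeded 20 in a macrophage library and 1 to 4 did in a T cell library, and their part in the Btla values was not tested.

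**Figure D4:**
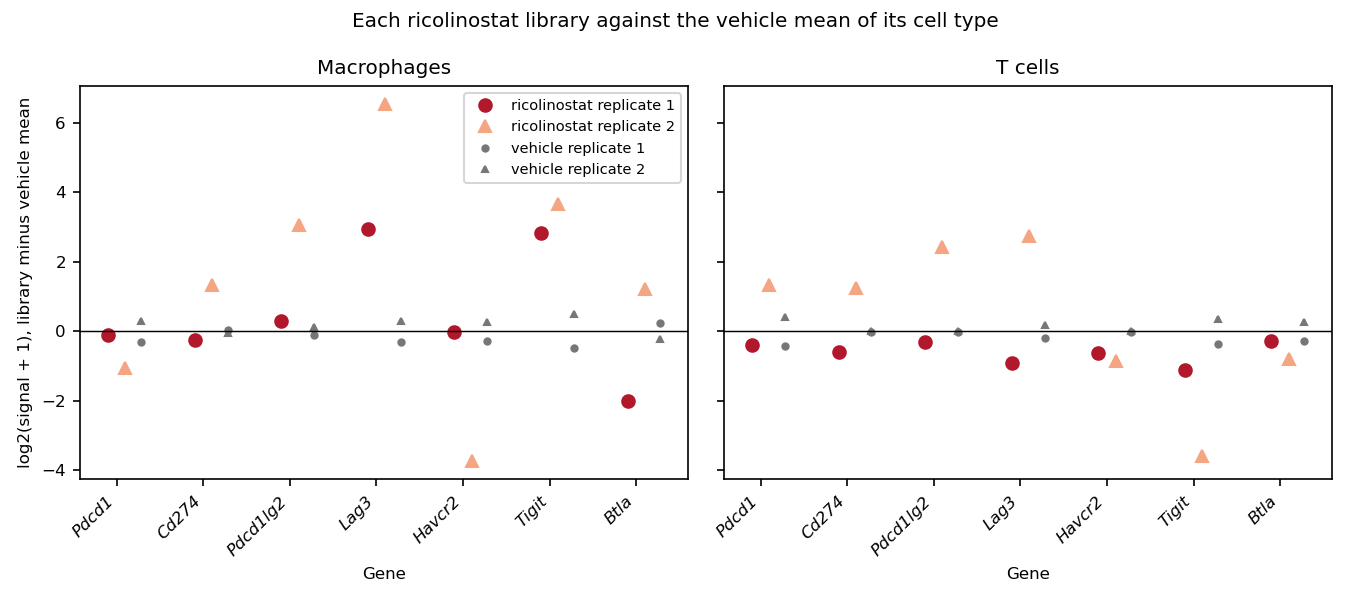
Log2(signal + 1) of each ricolinostat library minus the vehicle mean of its cell type (vertical axis) for the 7 genes, with the vehicle libraries shown as small grey symbols. Replicate 2 (triangles) lies above replicate 1 (circles) for Cd274, Pdcd1lg2 and Lag3 in both cell types and below it for Havcr2 in both.

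The other receptors and the signalling partners of PD-1 were described from 5 lists. Among 6 tested receptors of a list of further inhibitory receptors, 2 fell under JQ1 in T cells and 0 rose. Their median log2 difference was -3.11 against -0.37 over all genes. Of all genes tested, 5.54% of 632 fell, and 12.3% of 626 without ricolinostat replicate 2. Ctla4, the receptor that competes with CD28 for CD80 and CD86, had 7.27 and 2.29 under JQ1 and 322.17 and 501.91 under vehicle in T cells, a fall of at least 19.2-fold (limma adjusted p of 0.0123). Cd5, a brake on antigen receptor signals, fell at least 9.47-fold (0.0123). Of 6 tested genes of PD-1 signalling, 2 fell and 0 rose, with a median of -2.65, and 4 fell without ricolinostat replicate 2. Lck, a kinase of the antigen receptor and 1 of the 2, had a difference of -4.64 (adjusted p of 0.0123). Without ricolinostat replicate 2 the kinase gene Zap70 (adjusted p of 0.00768), Cd28 (0.0208) and the receptor gene Klrc1 (0.0304) fell as well. The loss of T cell markers given above moved with these genes. NK cell markers, of which Klrc1 is one, were lower as well: the sum of 6 was 62.16 and 55.77 under JQ1 and 416.44 and 660.47 under vehicle in T cells, and 2 of 5 tested fell, 3 without ricolinostat replicate 2. The part of either marker list was not tested.

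The next list holds the counterparts of the receptors. Of 12 tested ligands and counterparts, 0 rose and 0 fell under JQ1 in T cells by limma, and the median was -0.24. At an unadjusted p under 0.05 there was 1, against 93 of the 632 genes tested. The 1 was Pvrl2, which encodes a ligand of TIGIT. It averaged 2537 ± 139 under JQ1 and 1034 ± 248 under vehicle (SD, n = 2 each), a difference of 1.31 that passed only without ricolinostat replicate 2 (adjusted p of 0.0430). Pvrl2 and Pvr, which encodes the main ligand of TIGIT, were lower in macrophages than in T cells under JQ1 (-2.92, adjusted p of 0.00653, and -2.43, 0.00968), and Pvr also under vehicle (-2.27, 0.0101). Epithelial markers were higher in the T cell libraries than in macrophages, as given above. In T cells they were also higher under JQ1 (sums of 16245.5 and 16096) than under vehicle (6441.75 and 7365.16). All 3 had positive differences, with a median of 1.45, and 0 were called with all libraries. Their part in these ligand values was not tested. Cd80 and Cd86, the ligands of CTLA-4, had differences of -0.59 and -0.36 under JQ1 in T cells and did not pass.

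Of 9 tested genes from interferon gamma to PD-L1, 0 passed under JQ1 in T cells by limma, with 1 (Ifng) at an unadjusted p under 0.05, and the median was -0.27. Of all 632 genes tested, 93 had an unadjusted p under 0.05. Ifng, the cytokine that induces PD-L1, had 24.66 and 27.6 under ricolinostat, 5.84 and 10.02 under JQ1, and 26.68 and 74.46 under vehicle in T cells, at least 2.18-fold lower under JQ1 (unadjusted p of 0.0123, adjusted 0.148). Both JQ1 libraries were under 20, and the other 4 were above it. T cell and NK cell markers were also lower under JQ1, as given above, and their part in the Ifng values was not tested. Irf1, which carries the interferon signal to the Cd274 promoter, had a difference of 0.26 (adjusted p of 0.989). Without ricolinostat replicate 2, Ifngr1, a chain of the interferon gamma receptor, fell by 0.93 on the log2 scale (adjusted p of 0.0419).

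Of 9 tested transcription factors linked to exhaustion, 0 passed under JQ1 in T cells by limma, and the median was -0.53. At an unadjusted p under 0.05 were 2 (Eomes and Tcf7), against 93 of the 632 genes tested. Tcf7, the factor TCF-1 of stem-like T cells, averaged 20.89 ± 10.99 under JQ1 and 835 ± 282 under vehicle (SD, n = 2 each), a difference of -5.31 that passed only without ricolinostat replicate 2 (adjusted p of 0.0122). Batf and Irf4, which act downstream of the antigen receptor, had differences of -0.09 and -0.73 and did not pass. The T cell markers had a median of -5.46 in this comparison, and the NK cell markers, of which Eomes is one, -2.82. The part of either marker list in the Tcf7 and Eomes values was not tested. In each of the 3 macrophage comparisons between treatments, 0 of the 35 genes tested from the 5 lists passed with limma, with 1 at an unadjusted p under 0.05. Of all 566 genes tested, those at that threshold were 7 for JQ1 minus vehicle, 16 for ricolinostat minus vehicle and 35 for ricolinostat minus JQ1.

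Between ricolinostat and JQ1 in T cells, Ctla4 (at least 8.55-fold, limma adjusted p of 0.0246), Cd5 (at least 8.18-fold, 0.0224) and Lck (4.18, 0.0224) were higher under ricolinostat. Relative to vehicle under ricolinostat in T cells, 0 of the 42 genes tested from the 5 lists passed with limma. At an unadjusted p under 0.05 were 0 of the 42, against 18 of all 632 genes tested. Between cell types under vehicle, 10.1% of the 661 genes tested were lower in macrophages. Lower were 3 of 7 further receptors (Ctla4, Klrc1 and Cd5) and 3 of 6 genes of PD-1 signalling, Lck and Cd28 among them. So was 1 of 9 transcription factors (Tcf7, at least 38.7-fold, limma adjusted p of 0.0131). Of the 10 interferon genes tested between cell types, 0 passed under vehicle with limma. At an unadjusted p under 0.05 was 1 (Ifng), against 122 of the 661 genes tested.

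The genes most like each member over the 12 libraries were found by Pearson's r on log2(signal + 1) over 661 genes. The points share libraries, and r is a description with no test. Pdcd1 was most like Il2rb (r = 0.985), a chain of the interleukin-2 receptor, Cd5 (0.966) and Cd8b1 (0.960). Cd274 was most like Tank (0.982), Tgfbr2 and Cd37 (0.969 each), and Pdcd1lg2 most like Map4k2 (0.982), Il3ra (0.971) and Jak3 (0.968). For Lag3, r was 0.920 with Runx3 and 0.918 with Vcam1. Havcr2 was most like Rrad (0.930), Pik3cg (0.929) and Pdgfc (0.928). Tigit and Btla had looser neighbours, Ppbp (0.730), Cd27 (0.697) and Xcl1 (0.601) for Tigit and Cyfip2 (0.768), Cd96 (0.755) and Ccl17 (0.752) for Btla. Leaving out both ricolinostat replicate 2 libraries, r was 0.997 for Pdcd1 with Il2rb and 0.942 for Pdcd1lg2 with Map4k2. Each was still the first of its list. Cd274 with Tank had 0.900, at rank 2, with Tgfbr2 0.836 at rank 10 and with Cd37 0.817 at rank 15. Havcr2 with Rrad had 0.798 at rank 66, Tigit with Ppbp 0.665 at rank 48 and Btla with Ccl17 0.696 at rank 32. Tigit with Cd27 and Btla with Cyfip2 stood at rank 2, Tigit with Xcl1 at rank 22 and Btla with Cd96 at rank 15. Pdcd1 with Cd8b1 was at rank 3 and with Cd5 at rank 10. Pdcd1lg2 with Jak3 was at rank 4 and with Il3ra at rank 8. Lag3 with Runx3 was at rank 5 and with Vcam1 at rank 7, and Havcr2 with Pik3cg at rank 4 and with Pdgfc at rank 7.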

How the data were processed

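The deposited values are normalised signal, linear, with 1 value for each gene in each library. Per the labels, RNA was extracted with a Qiagen kit and counted by NanoString. The authors' normalisation, software and unit are not given in the sources used here, and the unit was read from the values. In each library the low values above the commonest one were evenly spaced from an offset (100% within 0.1 of a step), and that value and those below it were not part of this check. The step was taken as the signal of 1 count, from which depth was estimated. Counts were not recovered, so no counting interval is given, and the 2 libraries per group limit precision.

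Tests used limma 3.58.1 (R 4.3.3) applied to log2(signal + 1), which understates the change of low genes, with 1 mean per group, two-sided moderated p-values and Benjamini-Hochberg adjustment at 0.05. Treatments were compared in the 6 libraries of a cell type. Cell types and differences between effects were tested in all 12. Genes with at least 2 libraries above 20 were tested, and 18 housekeeping genes were not, leaving 752. Where every library of a group was at or below 20, "at least" bounds are given. The test was checked on simulated data in which every vehicle mean was far above 20, so genes low in all groups were not covered.

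The 7 members, the lists and the tests were chosen with earlier results of these data known. Named genes are the members, the 3 most alike to each, up to 4 passing genes per list and direction, Ctla4, Ifng and 6 markers, and a few genes that the rule takes are not reported here. Cd80, Cd86, Irf1, Batf, Irf4, Zap70, Klrc1, Pvrl2, Ifngr1 and Eomes were named after their values were seen, as examples. Alternatives were another pseudocount, no filter, median centring, quantile normalisation, a variance trend and libraries left out. Python 3.11.15, pandas 2.3.3 and matplotlib 3.10.9 served for tables and figures. Of 770 symbols 754 matched the GRCm38.p6 gene table, among them all 7 members.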

Additional observations from a re-analysis of the deposited data

Results flagged for a closer look

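For 1 value, the effect of JQ1 on Pdcd1, a test of the difference between cell types passed. The effect in macrophages minus that in T cells was 6.38 on the log2(signal + 1) scale (limma adjusted p of 0.0255). The difference in T cells was -6.84. The macrophage libraries were all below 20, at background, where no fall could have been measured. The call was lost without any single vehicle or JQ1 library.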

How the results depend on the processing

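No paired analysis was possible because the labels give no replicate numbers. Of 573 values in 41 results, 510 kept their direction and their side of the threshold. Under vehicle, macrophages minus T cells gave 1 called member, Pdcd1, with a pseudocount of 10, median centring and quantile normalisation (Tigit adjusted p of 0.0512, 0.0829 and 0.134), and the difference between the JQ1 effects gave 0 under quantile normalisation (Pdcd1 adjusted p of 0.0512). JQ1 minus vehicle in T cells gave 2 without both ricolinostat replicate 2 libraries. Scaling also moved the counts over all genes: 35 genes fell under JQ1 in T cells, 26 with median centring and 8 with quantile normalisation, and under vehicle 3 genes were higher and 67 lower in macrophages, 5 and 53 with centring and 20 and 41 with quantiles. The median over all genes in T cells under JQ1 was -0.37, -0.0584 after centring and 0.0359 after quantile normalisation.

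Directions that turned were all of differences that had not passed. With median centring they were Cd274 under JQ1 in T cells (4.13e-04) and Pdcd1lg2 between cell types under vehicle (0.23). With quantile normalisation they were Cd274 (0.0364), Lag3 (0.0716) and Havcr2 (0.55) under JQ1 in T cells, Havcr2 under JQ1 in macrophages (0.14), Cd274 (-0.0411) and Btla (0.28) under ricolinostat in T cells, Cd274 under ricolinostat in macrophages (-0.29) and Pdcd1lg2 between cell types (0.94). Without both ricolinostat replicate 2 libraries they were Pdcd1 (-0.40), Cd274 (-0.60), Pdcd1lg2 (-0.32) and Lag3 (-0.91) under ricolinostat in T cells and Cd274 in macrophages (-0.26). The cause was not tested.

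Leaving out 1 library at a time, the differences that turned ran from -0.40 to 1.34 for Pdcd1, -0.60 to 1.24 for Cd274, -0.32 to 2.42 for Pdcd1lg2 and -0.91 to 2.75 for Lag3 under ricolinostat in T cells, from -0.26 to 1.32 for Cd274 and -1.99 to 1.22 for Btla under ricolinostat in macrophages, from -1.28 to 1.96 for Lag3 under JQ1 in macrophages, and from -0.0272 to 0.0603 for Cd274 between cell types under vehicle. Members called ran from 0 to 2 for JQ1 minus vehicle, 0 to 4 for ricolinostat minus vehicle and 0 to 4 for ricolinostat minus JQ1 in T cells. In macrophages they ran from 0 to 3 for ricolinostat against vehicle and 0 to 3 against JQ1. Between cell types they ran from 1 to 2 under vehicle and 1 to 2 under ricolinostat, and from 0 to 1 for the difference between the JQ1 effects. The share of all genes called is not given for the fits without 1 library, so these counts do not set the members apart from other genes. With all libraries, 0% of genes were called for ricolinostat against vehicle in either cell type. Without ricolinostat replicate 1, the lone ricolinostat library was replicate 2, which differed from its partner far more than replicates did elsewhere. A fit without 1 library has fewer samples, which by itself raises p-values. Values near 20 rest on few counts, which limits Tigit and Btla.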
